A study of Mus musculus with 10 samples.

Results

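The genes described here belong to the thioredoxin system and the peroxiredoxins, which pass electrons from NADPH to protein thiols and to peroxides. The genes are Txnip, Txnrd1, Txnrd2, Txn2, Srxn1, Prdx1, Prdx3, Prdx5 and Prdx6, and each was read from its brightest probe set with a single gene symbol. Of the 9 genes, 6 had such a probe set, among 22180 genes measured. All 3 probe sets that carry the symbol Prdx1 carry a further gene as well, and the annotation used here lists no probe set for Prdx5 or Prdx6, so these 3 genes have no value below. Txnip has a second probe set that also names Gm15441, and that probe set was not used.

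Thioredoxin reductases, which are selenoproteins, reduce thioredoxin with NADPH, and thioredoxin in turn reduces ribonucleotide reductase, methionine sulfoxide reductases and peroxiredoxins, the enzymes that remove much of a cell's hydrogen peroxide. The cytosol and the mitochondria have separate sets: Txnrd1 acts in the cytosol, whereas Txnrd2, Txn2 and Prdx3 act in mitochondria. Srxn1 encodes sulfiredoxin, which repairs peroxiredoxins oxidised beyond the reach of thioredoxin. Txnip encodes an alpha-arrestin that binds reduced thioredoxin and also lowers glucose uptake, and its transcription is known to follow the glucose-sensing factors MondoA and ChREBP. Txnrd1, Srxn1 and Prdx1 are known targets of the antioxidant factor NRF2. Trivalent arsenic binds pairs of neighbouring thiols, of which the active sites of this system hold several.

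Expression was measured with Affymetrix whole-transcript arrays in primary neurons from the cortex of mouse embryos of day 14.5 to 15.5. The cells grew in Neurobasal medium with B27 plus, Glutamax and antibiotics, and on day 7 in vitro received 5 µM sodium arsenite or vehicle, followed by RNA extraction 12 hours later. The 4 groups were wildtype with vehicle (WT-Ctrl, 2 arrays), wildtype with arsenite (WT-ARS, 4 arrays), ATF4-deficient with vehicle (KO-Ctrl, 2 arrays) and ATF4-deficient with arsenite (KO-ARS, 2 arrays). ATF4 is a transcription factor that cells make during the integrated stress response and that turns on amino acid supply and redox genes. The labels name neither the mouse strain nor the Atf4 allele, and they do not tell which replicates had their own litter, embryo or dish. The sample titles call each sample a biological replicate without saying what was replicated. The p-values therefore rest on the spread among these samples, and whether it covers separate animals is not stated.

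Values are log2 expression after robust multiarray average (RMA), so a difference of 1 is a doubling on that scale. Atf4 lay between 9.09 and 9.91 in the 6 wildtype arrays and between 7.48 and 7.70 in the 4 ATF4-deficient arrays. The 10 neuron markers averaged 10.27 to 10.45 over the arrays, and none of them was under the dim reference defined below. Along the first principal component of all genes, KO-ARS replicate 2 lay at 29.4 while the remaining 9 arrays spanned -18.2 to 8.70. Every value of the 6 genes lay above 6.64, the level under which 90% of olfactory and vomeronasal receptor genes fell and which served as a dim reference, with the lowest at 7.13 for Txnrd2. A gene is called changed below where its Benjamini-Hochberg adjusted p over all 22180 genes is under 0.05 in limma, and intervals are 95% confidence intervals from that fit.

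The promoter stretches of Txnip, Txnrd1 and Arrdc4 are shown because these genes rose with arsenite, as described below, and hold a match to a pattern searched. Arrdc4 and Arrdc3 are alpha-arrestin relatives of Txnip, and Arrdc3, which rose as well, is not printed because none of its 3 annotated starts had a match. Each line gives the 250 bases before an annotated start, 5′ to 3′ on the gene's own strand, from RefSeq on build GRCm38.p6. Capitals mark matches to the letters searched, on either strand. The stretches are chr3:96557707-96557956 on the plus strand for Txnip, chr10:82858956-82859205 on the plus strand for the second of 3 annotated Txnrd1 starts, and chr7:68749239-68749488 on the minus strand for Arrdc4.
Txnip: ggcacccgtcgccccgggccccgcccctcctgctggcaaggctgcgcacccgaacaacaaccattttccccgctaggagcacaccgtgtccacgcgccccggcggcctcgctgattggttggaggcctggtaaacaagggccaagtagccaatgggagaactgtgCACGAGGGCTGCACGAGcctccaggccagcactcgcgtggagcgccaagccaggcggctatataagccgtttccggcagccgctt
Txnrd1: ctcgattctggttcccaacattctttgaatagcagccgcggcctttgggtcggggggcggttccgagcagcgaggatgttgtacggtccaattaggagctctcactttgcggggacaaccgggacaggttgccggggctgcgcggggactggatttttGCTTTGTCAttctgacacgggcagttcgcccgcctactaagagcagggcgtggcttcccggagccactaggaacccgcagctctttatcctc
Arrdc4: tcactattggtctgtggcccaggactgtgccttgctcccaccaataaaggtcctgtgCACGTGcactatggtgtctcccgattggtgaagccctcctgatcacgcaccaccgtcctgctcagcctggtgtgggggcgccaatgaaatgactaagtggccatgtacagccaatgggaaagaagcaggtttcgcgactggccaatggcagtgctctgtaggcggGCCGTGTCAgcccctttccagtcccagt

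The Txnip stretch holds 2 CACGAG boxes with 5 bases between them, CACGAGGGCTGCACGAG, beginning 85 bases before the start. That matches a pair of CACGNG boxes separated by any 5 bases, the form of the carbohydrate response element that MondoA and ChREBP bind. This pair occurs in 0.0457% of 32851 promoter stretches of that length, 15 in all. Txnrd1 holds GCTTTGTCA, 92 bases before its second start, which on the other strand matches TGACNNNGC, the core of the antioxidant response element bound by NRF2. That core is common, at 10.2% of stretches. Prdx1, which has no value here, holds it as well, as GCTGAGTCA from 133 bases before its start. Arrdc4 holds GCCGTGTCA from 28 bases before its start and a single E-box, CACGTG, from 193 bases before it, and the E-box alone occurs in 6.02% of stretches. TGATGNAA, the core of the amino acid response element that ATF4 binds with C/EBP partners, is in 3.45% of stretches. None of the 4 patterns was found in the stretches of Txnrd2, Txn2, Srxn1, Prdx3, Prdx5, Arrdc3 or the other 2 Txnrd1 starts, and TGATGNAA was found in none of those searched. A box of the pair is also an E-box where it reads CACGTG, which neither Txnip box does. Of the 9 genes, 8 had a promoter stretch. A match describes these letters and no binding was measured.

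Txnip gave the widest range of the 6 genes and rose with arsenite. Its values were 9.90 and 9.21 in the WT-Ctrl arrays, 10.99, 10.24, 10.24 and 10.47 with arsenite, 9.10 and 9.24 in the KO-Ctrl arrays, and 11.09 and 10.35 in the KO-ARS arrays. All 6 arsenite arrays lay above all 4 vehicle arrays. The share of all genes that separate in this way, here and for the genes below, was not counted. Within a genotype, arsenite arrays lay wholly above vehicle arrays for 7.86% of all genes in wildtype and 18.1% in ATF4-deficient neurons. Replicate 1 was the highest arsenite array in each genotype, and the wildtype vehicle arrays lay 0.69 apart (9.55 ± 0.49, SD, n = 2) while the ATF4-deficient vehicle arrays lay close together (9.17 ± 0.10, SD, n = 2). Averaged over the genotypes with equal weight, the rise was 1.24 log2 or 2.37-fold (SE 0.20, interval 0.81 to 1.67, adjusted p = 0.00792 in limma), and it was the 4th highest estimate of all genes. In ATF4-deficient neurons Txnip rose by 1.55 log2 or 2.93-fold (SE 0.30, adjusted p = 0.0351 in limma), from 9.17 ± 0.10 to 10.72 ± 0.52 (SD, n = 2 each). In wildtype neurons the difference was 0.93 log2 (SE 0.26, interval 0.37 to 1.5), between 9.55 ± 0.49 (SD, n = 2) and 10.49 ± 0.35 (SD, n = 4), and did not pass (adjusted p = 0.173 in limma). The 2 responses were not shown to differ, since the interaction was 0.62 (SE 0.39, interval -0.24 to 1.48, adjusted p = 0.878 in limma).

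The averaged Txnip call held when any 1 of the 10 arrays was omitted, with estimates between 1.06 and 1.43. The call within ATF4-deficient neurons was kept without either wildtype vehicle array or WT-ARS replicate 1 and was lost without each of the other 7. Its adjusted p was 0.0511, 0.0512 and 0.0565 without WT-ARS replicates 2, 3 and 4, 0.202 and 0.148 without KO-Ctrl replicates 1 and 2, and 0.135 and 0.0549 without KO-ARS replicates 1 and 2. The estimate was 1.18 without KO-ARS replicate 1 and 1.92 without KO-ARS replicate 2. In wildtype neurons the estimate was 1.28 without WT-Ctrl replicate 1 and 0.59 without WT-Ctrl replicate 2, so its size depended on which vehicle array was used.

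Txnrd1, the cytosolic thioredoxin reductase, rose with arsenite as well. Its values were 9.20 and 9.35 in WT-Ctrl, 9.73, 9.91, 9.64 and 9.65 in WT-ARS, 8.84 and 9.10 in KO-Ctrl, and 9.60 and 9.91 in KO-ARS. Again every arsenite array lay above every vehicle array, and both ATF4-deficient vehicle arrays lay below both wildtype ones. The averaged rise was 0.62 log2 or 1.54-fold (SE 0.09, interval 0.42 to 0.83, adjusted p = 0.00606 in limma). Within ATF4-deficient neurons it was 0.78 log2 or 1.72-fold (SE 0.14, adjusted p = 0.0279 in limma), from 8.97 ± 0.18 to 9.75 ± 0.21 (SD, n = 2 each). In wildtype neurons the difference of 0.46 log2 (SE 0.12, interval 0.19 to 0.73), from 9.27 ± 0.11 (SD, n = 2) to 9.73 ± 0.13 (SD, n = 4), did not pass (adjusted p = 0.147 in limma). The interaction was 0.32 (SE 0.18, interval -0.08 to 0.73, adjusted p = 0.853 in limma). The averaged call held without each of the 10 arrays (0.55 to 0.70), while the call within ATF4-deficient neurons was lost without KO-Ctrl replicate 1 (0.66, adjusted p = 0.193), KO-Ctrl replicate 2 (0.91, adjusted p = 0.0765) and KO-ARS replicate 2 (0.63, adjusted p = 0.176). With the 4 ATF4-deficient arrays fitted alone neither the Txnip nor the Txnrd1 call was kept (adjusted p = 0.255 and 0.28 in limma), and with array weights Txnip was at an adjusted p of 0.0521.

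**Figure D1:**
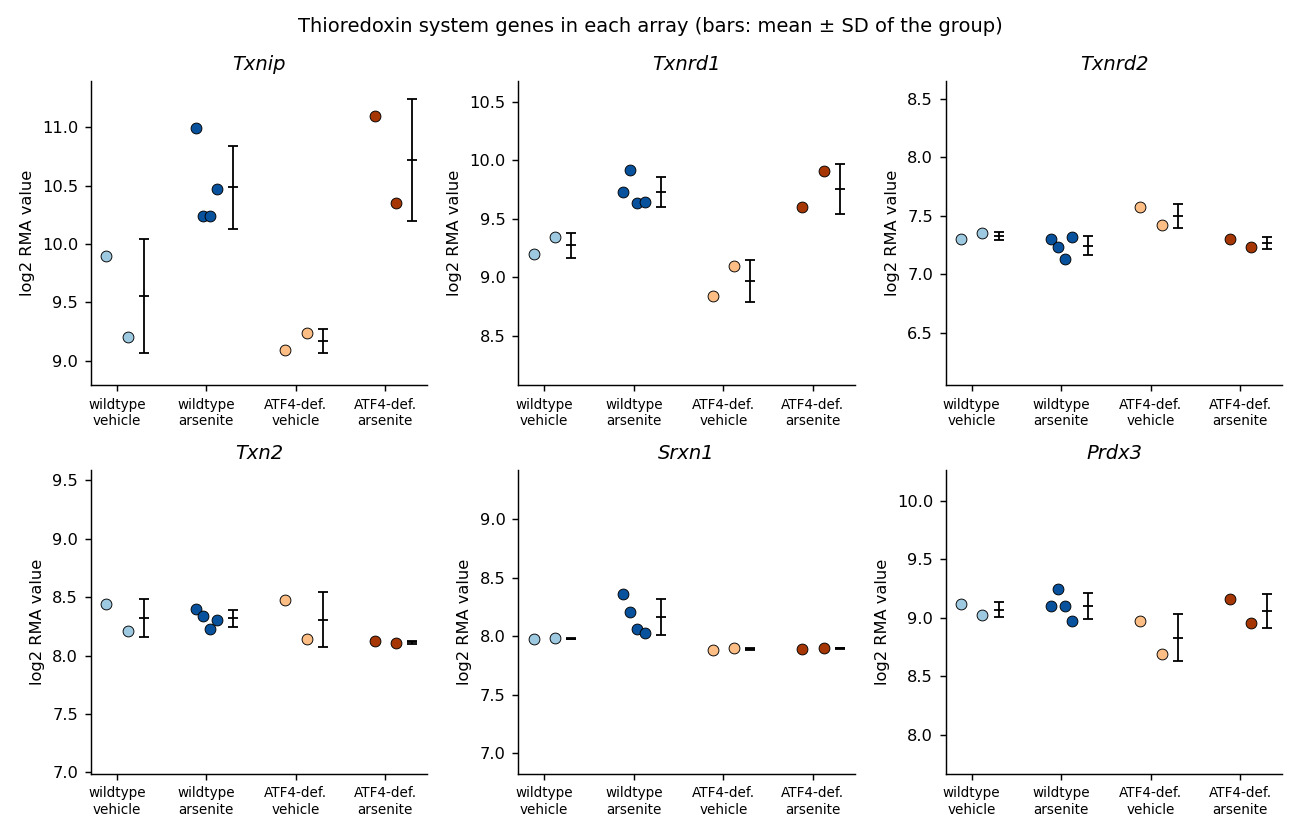
Log2 RMA value (vertical axis, the same height of scale in each panel) of the 6 measured genes in each of the 10 arrays, by group, where a point is an array and the bar beside it the mean ± SD. For Txnip and Txnrd1 all 6 arsenite points lie above all 4 vehicle points, while the other 4 genes span 0.37 to 0.56 in all.

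The mitochondrial members showed no call in any of the 7 comparisons. Txnrd2, the mitochondrial reductase, was at 7.30 and 7.35 in WT-Ctrl, 7.30, 7.23, 7.13 and 7.32 in WT-ARS, 7.57 and 7.42 in KO-Ctrl, and 7.30 and 7.23 in KO-ARS. Its ATF4-deficient vehicle arrays were the highest of the 10, and its averaged arsenite difference was -0.16 (SE 0.07, interval -0.30 to -0.01, adjusted p = 0.278 in limma). An identical Txnrd2 value stood in 3 arrays, and 16.0% of all genes had a value shared by 3 or more arrays, whatever their groups. Txn2, mitochondrial thioredoxin, was at 8.44 and 8.21, then 8.40, 8.34, 8.23 and 8.30, then 8.47 and 8.14, and at 8.12 and 8.10 in the same group order. The ATF4-deficient arsenite arrays were the lowest of the 10 but the nearest other array was KO-Ctrl replicate 2, and the averaged difference was -0.10 (interval -0.28 to 0.08, adjusted p = 0.636 in limma). Prdx3, the mitochondrial peroxiredoxin, was at 9.11 and 9.02, then 9.10, 9.25, 9.10 and 8.97, then 8.97 and 8.69, and at 9.16 and 8.96. KO-Ctrl replicate 2 was the lowest array and WT-ARS replicate 2 the highest. Its averaged arsenite difference was 0.13 (interval -0.05 to 0.32, adjusted p = 0.503 in limma), with the groups overlapping in each genotype.

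Srxn1 was at 7.97 and 7.98 in WT-Ctrl, 8.36, 8.20, 8.06 and 8.03 in WT-ARS, 7.88 and 7.90 in KO-Ctrl, and 7.89 and 7.90 in KO-ARS. All 4 wildtype arsenite arrays lay above every other array, and all 4 ATF4-deficient arrays lay within 0.02 of each other. The arsenite difference was 0.19 log2 in wildtype (interval -0.03 to 0.41, adjusted p = 0.546 in limma) and 0.00 in ATF4-deficient neurons (interval -0.25 to 0.26, adjusted p = 0.994). The interaction of -0.18 did not pass (interval -0.52 to 0.15, adjusted p = 0.898 in limma), nor did the genotype difference under arsenite, -0.27 (SE 0.10, interval -0.49 to -0.05, adjusted p = 0.321 in limma).

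**Figure D2:**
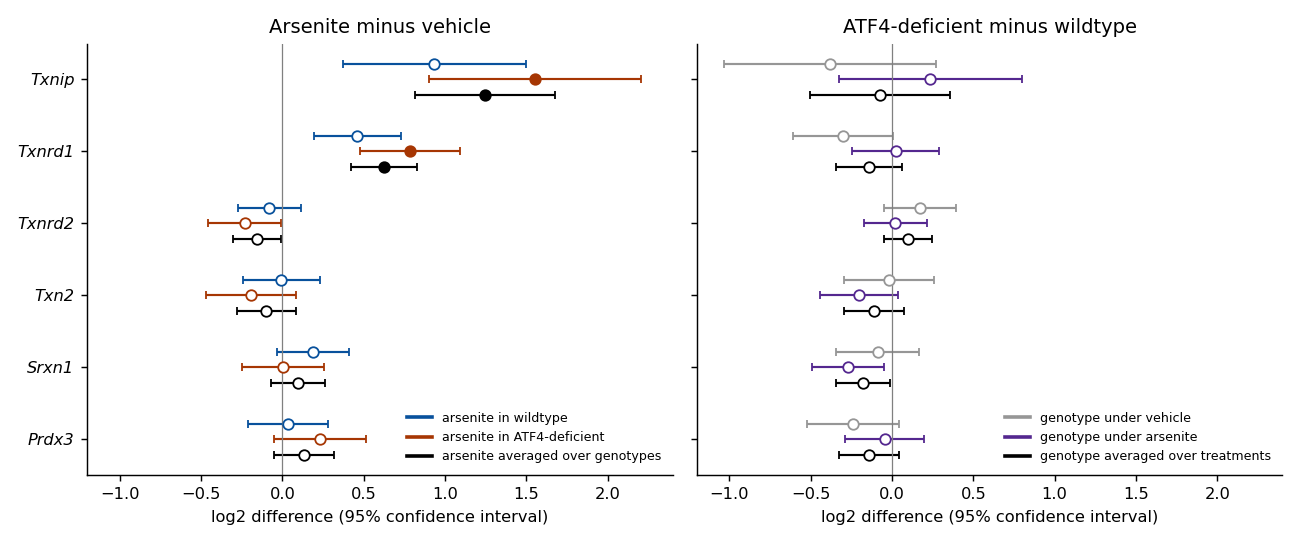
Log2 difference (horizontal axis, with 95% confidence interval) of the 6 genes for arsenite minus vehicle on the left and ATF4-deficient minus wildtype on the right, within each genotype or treatment and averaged; filled points have a limma adjusted p under 0.05. The filled points are those of Txnip and Txnrd1 for arsenite in ATF4-deficient neurons and averaged over genotypes, and the right side has none.

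Counted over the 6 measured genes, arsenite gave 0 calls in wildtype neurons, where 0.482% of all genes were called (107 genes, and 0 without WT-Ctrl replicate 1), with 2 genes (Txnip and Txnrd1) at an unadjusted p under 0.05 in limma. In ATF4-deficient neurons 2 of the 6 were called, both higher, where 1.15% of all genes were called and 0.631% were called higher. There 3 of the 6 had an unadjusted p under 0.05 in limma, the third being Txnrd2, which was lower (-0.23). Of all 22180 genes, 2657 had such a p in that comparison and 2426 in the wildtype one. Averaged over genotypes Txnip and Txnrd1 were again the 2 genes called, against 3.07% of all genes in either direction and 1.65% higher. The median difference of the 6 was 0.114 and that of all genes -0.0139. The 2 within-genotype comparisons contrast different arrays, and the averaged one uses the arrays of both. All take their spread from the same fit over all 10 arrays, so the 2 within-genotype tests are not independent. Arsenite arrays lay wholly above vehicle arrays for 3 of the 6 genes in wildtype (Txnip, Txnrd1 and Srxn1), as for 7.86% of all genes, and wholly below for 0 of the 6, against 12.7%. In ATF4-deficient neurons they lay wholly above for 2 (Txnip and Txnrd1), against 18.1%, and wholly below for 2 (Txnrd2 and Txn2), against 20.7%.

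Lack of ATF4 gave no call among the 6 genes. Under vehicle 0 of 6 were called in limma, against 0.433% of all genes, with 0 at an unadjusted p under 0.05, against 2420 of all genes. The estimates were -0.38 for Txnip (interval -1.03 to 0.27), -0.30 for Txnrd1 (interval -0.61 to 0.00), -0.24 for Prdx3 (interval -0.52 to 0.04), -0.09 for Srxn1, -0.02 for Txn2 and 0.17 for Txnrd2. Under arsenite 0 of 6 were called in limma, against 0.343% of all genes. Srxn1 was the 1 gene at an unadjusted p under 0.05, against 2683 of all genes. Txnip (0.24, interval -0.33 to 0.80) and Txnrd1 (0.02, interval -0.24 to 0.29) had estimates above 0 there, and the sign of each depended on the arrays used: without KO-ARS replicate 1 Txnip was at -0.13, and without KO-ARS replicate 2 Txnrd1 was at -0.13. Averaged over treatments 0 of 6 were called in limma, against 1.82% of all genes. Srxn1 (-0.18, adjusted p = 0.278) again was the 1 gene under 0.05 before adjustment, against 3614 of all genes. For the interaction 0 of 6 and 0.0% of all genes were called in limma, while 0 of the 6 and 1330 of all genes had an unadjusted p under 0.05. Under vehicle the ATF4-deficient arrays lay wholly below the wildtype ones for Txnrd1, Srxn1 and Prdx3, 3 of the 6 genes against 21.4% of all genes, and wholly above for Txnrd2, 1 of the 6 against 21.2%. Under arsenite they lay wholly below for Txn2 and Srxn1, 2 of the 6 against 7.95%, and wholly above for 0 of the 6, against 10.6%. Comparisons that share a vehicle or arsenite group also share its arrays, so a high or low value there enters both.

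Averaged over treatments, 1.82% of all genes were called between genotypes in limma. Of the markers, 6 of 13 astrocyte markers and 3 of 8 oligodendrocyte lineage markers were called lower in ATF4-deficient neurons. So were 2 of 7 progenitor and cycling markers and 1 of 6 fibroblast markers. Of 8 endothelial and mural markers 1 was higher, and of 10 neuron markers 1 was higher and 1 lower. Of microglia and macrophage markers 0 of 9 were called. Under vehicle alone the astrocyte count was 1 of 13, against 0.433% of all genes. The 13 astrocyte markers averaged 8.17 and 8.39 in wildtype vehicle arrays, 7.64 to 8.17 in wildtype arsenite arrays, 7.30 and 7.61 in ATF4-deficient vehicle arrays and 7.21 and 7.53 in ATF4-deficient arsenite arrays, with 2 of the 13 (S100b and Fgfr3) under the dim reference. Their median difference was -0.69 between the genotypes under vehicle, -0.38 for arsenite in wildtype and -0.13 for arsenite in ATF4-deficient neurons. Summed on the linear scale, the list's log2 level was 12.15 to 12.44, 11.57 to 12.23, 11.14 to 11.49 and 11.03 to 11.40 in the same group order. Of other lists, 4 of 9 microglia and macrophage markers, 5 of 8 endothelial and mural markers, 2 of 6 fibroblast markers, 1 of 8 oligodendrocyte lineage markers and 0 of 7 progenitor and cycling markers were under the dim reference. The oligodendrocyte lineage list averaged 7.41 to 7.56, 7.14 to 7.35, 7.11 to 7.15 and 6.86 to 7.03 in that group order. Txnip and Txnrd1 were called for arsenite within ATF4-deficient neurons and averaged over genotypes. Within ATF4-deficient neurons the means of the oligodendrocyte lineage list were lower with arsenite without overlap. So were those of the endothelial and mural list (6.76 to 6.78 with vehicle, 6.57 to 6.63 with arsenite) and, by a narrow gap, of the progenitor and cycling list (7.35 to 7.46 and 7.31 to 7.32). Those of the astrocyte, microglia and fibroblast lists overlapped. The neuron list went the other way by a narrow gap, at 10.346 to 10.39 with vehicle and 10.394 to 10.448 with arsenite. Separation of 2 arrays from 2 is common, as 20.7% of all genes lay wholly below and 18.1% wholly above in this comparison. In this comparison 1 endothelial and mural marker was called lower and 0 markers of the other lists were called in limma, against 1.15% of all genes. Averaged over genotypes, 1 of 13 astrocyte, 1 of 8 oligodendrocyte lineage and 1 of 6 fibroblast markers were called lower for arsenite. No marker of the other lists was called there, against 3.07% of all genes. In wildtype neurons 1 oligodendrocyte lineage and 1 fibroblast marker were called lower and none of the other lists, against 0.482% of all genes. Fewer cells of a type and less RNA per cell cannot be told apart in these bulk samples, and the part of these differences in the values of the 6 genes was not tested.

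The remaining genes of the system were read from lists written for this work. Of 9 other thioredoxin and peroxiredoxin genes, 0 rose and 0 fell with arsenite averaged over genotypes, and 3 had an unadjusted p under 0.05 in limma: Txn1, cytosolic thioredoxin, at 0.28 (adjusted p = 0.116), the thioredoxin-like gene Txnl1 at 0.30 (adjusted p = 0.161) and Txndc17, a thioredoxin-related disulfide reductase, at -0.27 (adjusted p = 0.124). Txn1 was at 9.49 and 9.66 in wildtype vehicle and 9.67, 9.74, 9.67 and 9.84 in wildtype arsenite arrays, and at 9.67 and 9.30 against 9.92 and 9.84 in ATF4-deficient ones. Its arsenite arrays thus lay above the vehicle arrays within each genotype, in wildtype only by 9.67 against 9.66. Such separation held for 7.86% of all genes in wildtype and 18.1% in ATF4-deficient neurons. Neither Txn1 difference passed (adjusted p = 0.687 in wildtype and 0.214 in ATF4-deficient neurons, limma). The peroxiredoxin genes Prdx2 (-0.11, interval -0.33 to 0.12) and Prdx4 (-0.05, interval -0.23 to 0.12) did not pass. Among 4 glutaredoxin genes, 8 genes for proteins that thioredoxin reduces or binds, 9 for other enzymes of peroxide and superoxide removal and 6 for selenoprotein synthesis, 0 rose and 0 fell in the averaged comparison. At an unadjusted p under 0.05 in limma these lists had 1, 2, 1 and 1 genes, and their median differences lay between -0.0201 and 0.123. Of all 22180 genes, 3576 had such a p in the averaged comparison, the background for these counts and for the 3 of 9 above.

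Relatives of Txnip rose with arsenite as well. Of 7 alpha-arrestin relatives and regulators of Txnip, Arrdc3 and Arrdc4 rose averaged over genotypes, where 1.65% of all genes were called higher. The other 5 did not pass, namely Arrdc1, Arrdc2 and the genes of the factors MLX, MondoA (Mlxip) and ChREBP (Mlxipl). Mlxipl lay under the dim reference in all 10 arrays, so its not passing says little. Arrdc4 was at 9.43 and 9.17 in WT-Ctrl, 9.90, 9.65, 9.65 and 9.68 in WT-ARS, 8.79 and 8.94 in KO-Ctrl, and 9.76 and 9.65 in KO-ARS. All arsenite arrays lay above all vehicle arrays, as for Txnip. Its averaged rise was 0.63 log2 or 1.55-fold (SE 0.08, adjusted p = 0.00345 in limma), and in ATF4-deficient neurons it rose by 0.84 (SE 0.13, adjusted p = 0.0137). Arrdc3 was at 10.17 and 9.90, then 10.66, 10.59, 10.63 and 10.28, then 10.13 and 10.21, and at 10.81 and 11.02 in that group order, again with no overlap between treatments. It rose by 0.62 log2 on average (SE 0.10, adjusted p = 0.00694 in limma) and by 0.74 in ATF4-deficient neurons (adjusted p = 0.0373). Both averaged calls were kept without each of the 10 arrays, with 0.57 to 0.70 for Arrdc4 and 0.55 to 0.69 for Arrdc3. The calls within ATF4-deficient neurons were lost without any of the 4 ATF4-deficient arrays, and that of Arrdc3 was kept only without WT-ARS replicate 4. With the ATF4-deficient arrays fitted alone neither was kept, and with array weights that of Arrdc3 was lost. In wildtype neurons neither passed (0.42 for Arrdc4, adjusted p = 0.136, and 0.50 for Arrdc3, adjusted p = 0.130).

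Of 12 measured NRF2 targets outside the family, 5 rose in the averaged comparison, namely Hmox1 (2.71), Slc7a11, Gclc (0.59), Gsr (0.59) and Gclm (0.53). Of all genes, 1.65% were called higher there. The other 7 targets did not pass, and 1 of them, Nqo1, lay under the dim reference in all 10 arrays, so its not passing says little. Gclc and Gclm encode the subunits of glutamate-cysteine ligase, the enzyme that starts glutathione synthesis, and Gsr encodes glutathione reductase. The list was chosen with earlier results on these arrays known and its median difference was 0.301. Slc7a11, which encodes the cystine transporter that supplies glutathione synthesis and is a known target of ATF4 as well, was the 1 gene of the list called between genotypes. Under arsenite it was lower in ATF4-deficient neurons (adjusted p = 0.00603 in limma), at 6.79 and 6.41 against 8.67 to 9.12 in the WT-ARS arrays, and that call was lost without either KO-ARS array and with the replicate number as a block. Averaged over treatments Slc7a11 was called lower as well (adjusted p = 0.00225 in limma), and that call was kept with the block and without any 1 array. As 4 of the 10 Slc7a11 values lay under the dim reference, those of KO-ARS replicate 2 and both KO-Ctrl arrays among them, no size is given for its differences. The Gclm call was lost without WT-Ctrl replicates 1 or 2, WT-ARS replicate 3, KO-Ctrl replicate 1 or KO-ARS replicate 2 (0.43 to 0.63 over all 10 omissions), and the Gsr call without WT-Ctrl replicate 1, either KO-Ctrl array or KO-ARS replicate 2 (0.46 to 0.72). The averaged rise of Txnrd1 (0.62) lay beside those of Gclc and Gsr, while that of Srxn1 (0.10, interval -0.07 to 0.26) did not pass.

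**Figure D3:**
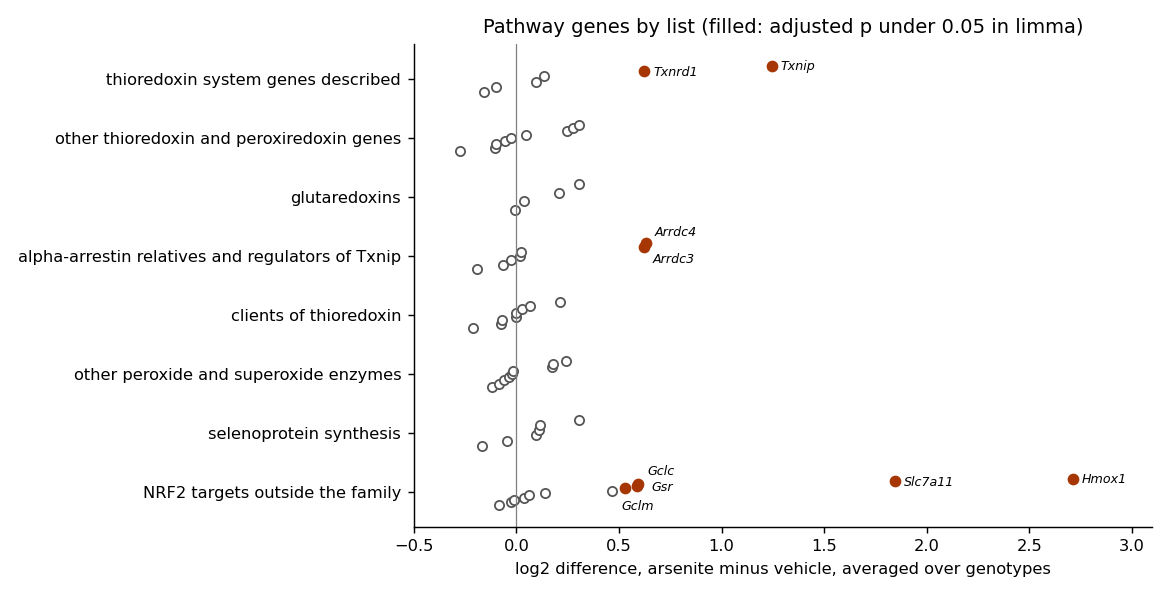
Log2 difference for arsenite minus vehicle averaged over genotypes (horizontal axis) of each measured gene, by list (vertical axis); filled points have a limma adjusted p under 0.05. The filled points are Txnip and Txnrd1, Arrdc3 and Arrdc4, and 5 of the 12 NRF2 targets.

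The genes most like Txnip over the 10 arrays, by Pearson correlation among 12316 other named genes above the dim reference, were Tnfrsf23 (r = 0.950), a decoy death receptor, Arrdc4 (0.945), the non-coding RNA gene Ftx (0.934), Sqstm1 (0.933), which encodes the autophagy receptor p62, and Klf10 (0.932), a zinc-finger transcription factor. Most like Txnrd1 were Osbpl6 (0.987), an oxysterol-binding protein-like gene, the zinc-finger gene Zfp462 (0.973), Gclc (0.966), Bach1 (0.966), which encodes a haem-regulated repressor of antioxidant genes, and Tbc1d31 (0.964). These are descriptions over arrays that share their treatment groups, so any gene that separates arsenite from vehicle correlates with them. The correlation of Txnip with Txnrd1 was 0.760 and that of Txnip with Arrdc3 was 0.767 (n = 10 arrays), and Txnrd1 ran opposite to Txnrd2 (r = -0.816). Arrays also differed within a treatment: of the arsenite arrays the 2 highest in Txnip (10.99 and 11.09) were at 9.73 and 9.60 in Txnrd1, and the 2 highest in Txnrd1 (both 9.91) were at 10.24 and 10.35 in Txnip.

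**Figure D4:**
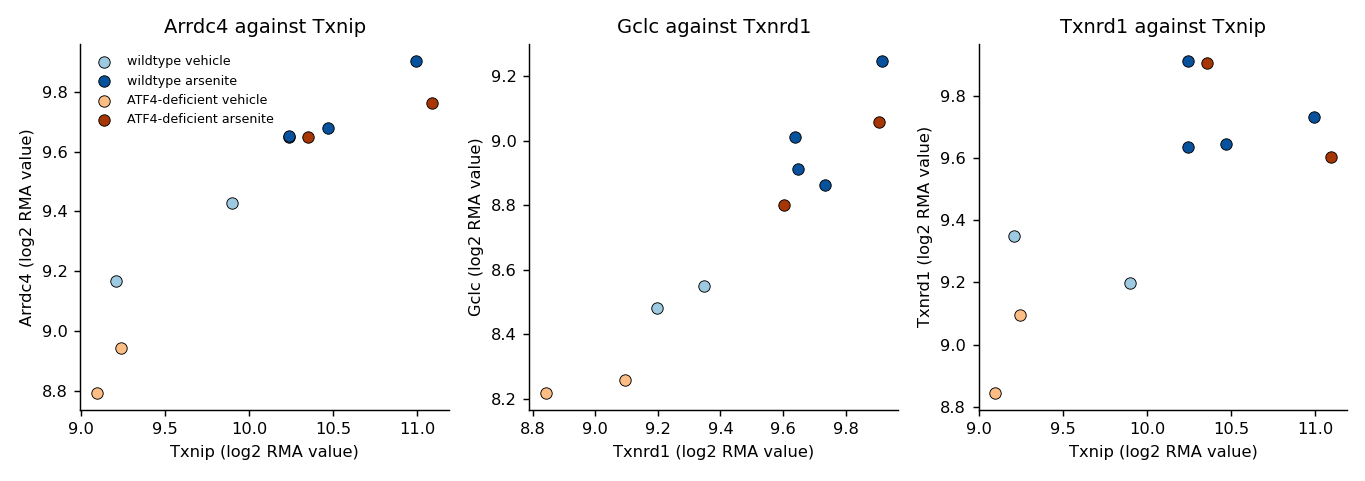
Log2 RMA values of Arrdc4 against Txnip, Gclc against Txnrd1, and Txnrd1 against Txnip, with a point for each of the 10 arrays coloured by group. Arrdc4 and Gclc are shown as 2 of the genes chosen for their high correlation (r = 0.945 with Txnip and 0.966 with Txnrd1), the third panel has r = 0.760, and arsenite and vehicle points separate on both axes in each panel.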

How the data were processed

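RNA from 10 samples was labelled with Affymetrix WT PLUS reagents, per the labels' protocols. The authors deposited log2 expression values, made by RMA in Partek 6.6, per the submitters' processing notes and GEO design text. RMA gives every array nearly the same distribution and so hides a shift of the whole transcriptome. Single-probe signals were not used here.

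Of 41345 probe sets, 23521 had 1 gene symbol, 1814 several and 16010 no entry in the platform annotation, and 23328 matched GRCm38.p6 by Entrez identifier. The brightest probe set stood for each of 22180 genes. Group means were estimated over all 10 arrays in 1 fit of limma 3.58.1 under R 4.3.3 (6 residual degrees of freedom), with Benjamini-Hochberg adjustment over all genes, and tested on simulated data. The number of arrays limits the precision.

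The members, lists and promoter patterns were chosen with earlier results of these data known. Named were every member, genes of the pathway lists past the threshold in any of 7 comparisons (cell type markers are given as counts), the 5 genes most correlated with Txnip and with Txnrd1 and, as a check of the labels, Atf4. Other genes named were chosen after their values were seen. Txn1, Txnl1 and Txndc17 were under an unadjusted p of 0.05 in limma. Prdx2, Prdx4, Arrdc1, Arrdc2, Mlxip and Mlxipl complete their families, and Nqo1 lay under the dim reference in all 10 arrays. Alternatives were a filter on dim genes, averaged probe sets, arrays set to 1 median, array weights, a trended robust prior, the compared groups alone, a replicate block and leaving out each array.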

Additional observations from a re-analysis of the deposited data

How the results depend on the processing

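The number of members called for arsenite in ATF4-deficient neurons was 2. It became 1 with array weights, 0 with the compared groups alone, and 0 to 2 with 1 array left out. For Txnip the adjusted p was then 0.0521 with array weights and 0.255 with the compared groups alone, within 0.0184 to 0.255 over 7 alternatives. For Txnrd1 it was 0.28 with the compared groups alone, within 0.0133 to 0.28. In the other 6 comparisons no alternative run changed the number of members called. The cause was not tested. The titles number the biological replicates within each group but do not say whether a number shared between groups marks a pair. The deviations of same-numbered arrays correlated between -0.06 and 0.40 (0.40 for KO-Ctrl with KO-ARS). These were not over 0.1 in every pair of groups, so the numbers were not treated as pairs. The replicate block changed no call of a member, giving 1.55 for Txnip (adjusted p = 0.0184 in limma) and 0.78 for Txnrd1 (adjusted p = 0.0133) in ATF4-deficient neurons. It ended the calls of Slc7a11 for genotype under arsenite and for arsenite within each genotype.

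Sign changes came only among uncalled estimates. Under the replicate block Txn2 for arsenite in wildtype turned to 0.046 and Txnrd1 for genotype under arsenite to -0.069. With 1 array left out, the ranges that crossed 0 were, for arsenite in wildtype, -0.12 to 0.11 (Txn2) and -0.013 to 0.08 (Prdx3). For arsenite in ATF4-deficient neurons it was -0.0032 to 0.012 (Srxn1). For genotype under vehicle it was -0.18 to 0.15 (Txn2). For genotype under arsenite they were -0.13 to 0.61 (Txnip), -0.13 to 0.17 (Txnrd1), -0.017 to 0.055 (Txnrd2) and -0.15 to 0.060 (Prdx3). For genotype averaged over treatments it was -0.26 to 0.11 (Txnip). With 2 arrays in most groups, differences under about the widths of the intervals given are not detectable.

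The counts over all genes behind the background shares moved more, and in both directions. Array weights raised the count for arsenite in wildtype from 107 to 186 and for genotype under vehicle from 96 to 228. With dim genes removed, arsenite in ATF4-deficient neurons rose from 256 to 339 and genotype under arsenite from 76 to 92. The averaged counts then rose from 682 to 884 and from 404 to 528. With the compared groups alone genotype under vehicle gave 0. The ranges below are with 1 array left out. For arsenite in wildtype 107 genes became 17 with the replicate block, 11 with the compared groups alone and 0 (without WT-Ctrl replicate 1) to 75 with 1 array left out. For arsenite in ATF4-deficient neurons 256 became 0 with the compared groups alone and 50 (without KO-ARS replicate 2) to 200. For genotype under vehicle 96 became 0 (without WT-Ctrl replicate 2 or KO-Ctrl replicate 2) to 99, and under arsenite 76 became 4 with the block and 1 (without KO-ARS replicate 2) to 64. Averaged, 682 for arsenite became 242 (without WT-Ctrl replicate 1) to 654 and 404 for genotype 58 (without WT-Ctrl replicate 2) to 377.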
